A study of Mus musculus with 12 samples.

Results

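Monocarboxylate transporter genes of the Slc16 family, 6 in number, were followed in resting B (RB) cells given innate and costimulatory signals: Slc16a1, Slc16a3, Slc16a6, Slc16a7, Slc16a10 and Slc16a13. They were chosen by their gene symbols on the array, and Slc16a6 was selected on its measured change in earlier results of these same arrays. Its values are therefore given as a description with no test, and so are all fold changes that rest on it. They are 6 of the 14 Slc16 genes on the array and had 11 of its 61307 probes. Of these probes 8, from 5 of the 6 genes, were among the 31601 that were tested, which had to exceed background clearly in both replicates of 1 or more conditions. That filter can pass a probe through the condition in which it is high, so the 8 probes do not stand for all 11.

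The RNA came from RB cells of BALB/c mouse spleens, isolated by removing cells that carry CD43, and the labels give female mice of 6 weeks and 4 h of stimulation, while the methods give mice of either sex. There were 12 one-colour arrays, 2 for each of 6 conditions. These were unstimulated cells, cells given Pam2CSK4, a lipopeptide that activates Toll like receptor 2 (TLR-2), cells given a cross-linked antibody to the costimulatory molecule CD86 (anti-CD86), cells given both (TLR2.CD86), cells given an antibody to CD40 (anti-CD40), and cells given anti-CD40 with Pam2CSK4 (anti-CD40.Pam2CSK4). All conditions shared the strain, tissue, isolation and time, and an isotype control was not analysed here. Nothing in the labels says whether the 2 arrays of a condition came from separate mice, although the study speaks of biological replicates, so that p-values measure the spread between arrays, which may be technical.

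The transporters of this family carry small organic acids and related molecules across membranes. Slc16a1, Slc16a3 and Slc16a7 carry lactate, pyruvate and ketone bodies together with a proton, and which of them a cell uses shapes whether lactate leaves it or enters it. Lymphocytes that leave rest raise glycolysis and release lactate, and Slc16a1 and Slc16a3 are the best known routes. Slc16a10 carries aromatic amino acids, Slc16a6 has been linked to ketone body export from liver cells, and Slc16a13 is less studied. Slc16a1 and Slc16a3 reach the cell surface with the help of basigin (Bsg), and embigin (Emb) serves Slc16a7 in the same way.

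The results turn on the probes of Slc16a6, which disagreed with each other, and of Slc16a1, whose brighter probes moved alike. Probes of a gene are numbered by their mean signal, the brightest being the first. Every probe has 60 bases, and the first 30 are printed here so that a reader can tell the probes apart, in lower case with no part singled out.
Slc16a6, the first probe: ctactatattataaagtgacatccagccca
Slc16a6, the second probe: ttgtactacgaatgttcgagacgatttaat
Slc16a1, the first probe: atgggttcagtgtaaggataagaggaaaga
Slc16a1, the second probe: gaggaagtttgctgagaacttgtatcatgc
Slc16a1, the third probe: gtctggaaatgtggtcatgttttttggact
Both Slc16a6 probes were assigned by the files to the same 2 RefSeq transcripts, and all 3 Slc16a1 probes to 1. The coordinate column of the scanner files reads unmapped for all 11 probes, so their exon or untranslated position was not analysed here. Neither Slc16a6 probe shared a stretch of 15 bases with any other probe of the array on either strand. The first Slc16a1 probe shared such a stretch with 1 other probe on the opposite strand, and the third probe with 1 on each strand. The G and C content of the 60 bases was 35.0% in both Slc16a6 probes and 38.3% to 43.3% in the Slc16a1 probes.

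Signals are log2 of the processed intensity after subtraction of the log2 75th percentile of each array, so that 0 is the level of that percentile. Between 46.6% and 60.6% of the spots of an array were well above background, and no probe of the 6 genes was saturated on any array. On this scale the dimmest spot called well above background lay between -4.22 and -3.45, depending on the array. The arrays lay on 2 slides, of which slide 2 held replicate 2 of Pam2CSK4, anti-CD86, TLR2.CD86 and anti-CD40 and slide 1 the other 8, so that the unstimulated and anti-CD40.Pam2CSK4 conditions were on slide 1 alone. The slides stood apart, since 18062 of the 31601 probes differed between them, 5650 higher on slide 2. Between the 2 arrays of a condition the median absolute log2 difference of bright probes was 0.18 to 0.30 in the 4 conditions split over the slides. It was 0.05 in unstimulated cells and 0.06 with anti-CD40.Pam2CSK4. The spread in the fit without a slide block therefore includes the slide difference, and so do its p-values. Fold changes are from the fit of 1 mean per condition, and calls that differ in the fit with a slide block are given beside them, with values from the slide 1 arrays alone for the main comparisons with unstimulated cells. In the 4 conditions split over the slides such a value rests on 1 array, which is also part of the fit. Each SE is the moderated one of its fit, which pools the spread of a probe over all 12 arrays. It is not the spread of the compared arrays alone. Where arrays are said to overlap or not, the share of all tested probes that did so is not given. Such statements are descriptions only. All 8 B cell genes and all 9 myeloid genes listed were well above background on all 12 arrays, as were 5 of the 6 T cell genes on the array. The summed signal of the B cell genes, relative to the 75th percentile, was 683 to 746 with anti-CD40.Pam2CSK4 and 479 to 635 in the other conditions. That of the T cell genes was 21.8 to 21.9 and 15.5 to 21.7, and that of the myeloid genes 357 to 408 and 289 to 376, in the same order. The sum of 5 liver genes was 0.32 to 0.49 with anti-CD40.Pam2CSK4 and 4.46 to 9.16 elsewhere, and albumin (Alb) was at -3.47 and -2.47 in log2 signal there against 1.25 to 2.20. The part of these genes in the results below was not tested, and in such bulk RNA fewer cells of a type and less RNA per cell cannot be told apart.

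Slc16a6 gave different pictures through its probes, with opposite signs under anti-CD40.Pam2CSK4. The first probe was highest in unstimulated cells and lower in every stimulated array. The second probe was near its unstimulated level with Pam2CSK4, lower with anti-CD86, TLR2.CD86 and anti-CD40, and higher with anti-CD40.Pam2CSK4. The signals of the first probe were 4.70 and 4.68 in unstimulated cells, 4.48 and 4.30 with Pam2CSK4, 4.43 and 4.30 with anti-CD86, 4.41 and 4.18 with TLR2.CD86, 4.21 and 3.92 with anti-CD40, and 4.28 and 4.34 with anti-CD40.Pam2CSK4. No stimulated array reached the lower unstimulated one, and the stimulated conditions overlapped their neighbours in order. The mean differences from unstimulated cells ran from -0.30 ± 0.14 (SE, n = 2 against 2) with Pam2CSK4 to -0.62 ± 0.14 with anti-CD40, and with a slide block from -0.20 to -0.52.

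The second Slc16a6 probe read -1.68 and -1.83 in unstimulated cells, -1.72 and -1.58 with Pam2CSK4, and -2.94 and -2.83 with anti-CD86. It read -3.34 and -3.41 with TLR2.CD86, -3.35 and -4.25 with anti-CD40, and -0.04 and -0.19 with anti-CD40.Pam2CSK4. Both anti-CD40.Pam2CSK4 arrays lay above every other array, the Pam2CSK4 arrays overlapped the unstimulated ones, and the anti-CD86, TLR2.CD86 and anti-CD40 arrays lay below them without overlap. The lower anti-CD40 array was not well above background, the only such value of this probe among 12. The SD of the 2 arrays was 0.63 with anti-CD40 and 0.05 to 0.11 in the other conditions. Against unstimulated cells the mean differed by 0.11 ± 0.25 with Pam2CSK4, by -1.13 ± 0.25 with anti-CD86, by -1.62 ± 0.25 with TLR2.CD86, by -2.04 ± 0.25 with anti-CD40 (-1.59 without its dim array) and by 1.64 ± 0.25 with anti-CD40.Pam2CSK4 (SE, n = 2 against 2). On the linear scale the last was 3.12-fold higher. That condition is also the one in which the summed liver genes were lowest and the summed B cell and T cell genes highest. The summed myeloid genes were 357 to 408 there and 289 to 376 elsewhere. The part of all these genes in this result was not tested.

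**Figure D1:**
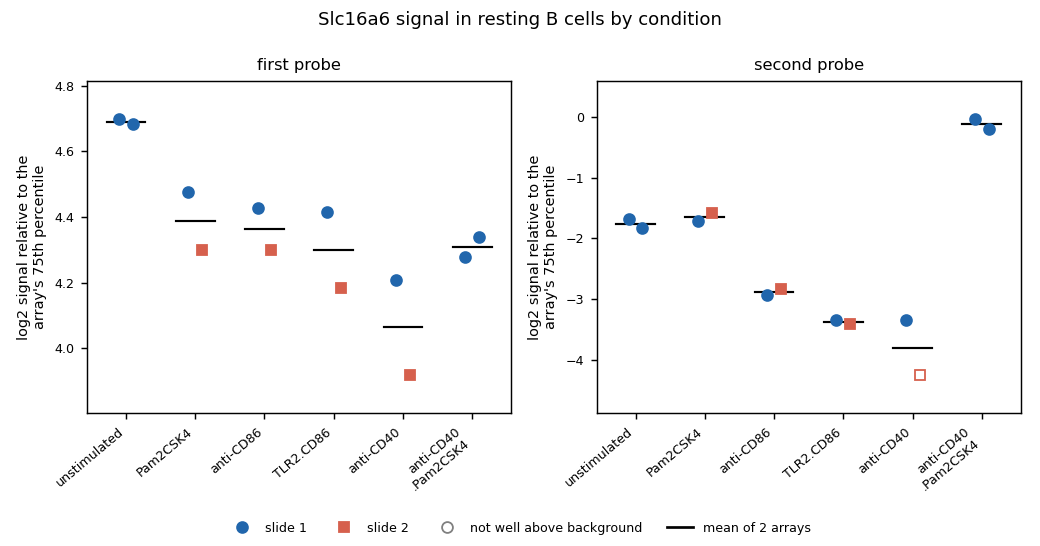
Log2 signal of both Slc16a6 probes (vertical axes, with the 75th percentile of each array at 0) in the 6 conditions, with 1 point per array, circles for slide 1, squares for slide 2, open points where the spot was not well above background, and a bar at the mean of 2 arrays. The first probe is highest in unstimulated cells, and the second is highest with anti-CD40.Pam2CSK4, at -0.04 and -0.19.

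The second Slc16a6 probe also differed between anti-CD40 with and without Pam2CSK4. The measured signal with both was 3.68 ± 0.25 higher than with anti-CD40 alone, where 1 of the 2 arrays was not well above background, and 3.23 higher than the array that was. It was 1.53 ± 0.25 higher than with Pam2CSK4 alone. It was also 3.26 ± 0.25 higher than with TLR2.CD86. Added to Pam2CSK4, anti-CD86 went with a difference of -1.73 ± 0.25 in the same probe, so that the antibodies differed in sign on top of the same TLR-2 ligand. The departure from the sum of the single effects was 3.57 ± 0.35 for anti-CD40 with Pam2CSK4, or 3.13 without the array that was not well above background, and -0.60 ± 0.35 for anti-CD86 with Pam2CSK4. The values with a slide block were 3.39 ± 0.39 and -0.69 ± 0.36, and on slide 1 alone the probe stood -1.59 from unstimulated cells with anti-CD40 and 1.64 with anti-CD40.Pam2CSK4. The dim anti-CD40 array lay on slide 2, so leaving it out and using slide 1 alone give the same anti-CD40 value. For the first probe the same departures were 0.55 ± 0.20 and 0.24 ± 0.20. Both probes are given because a gene has no single value here, and the brightest probe alone would show none of the rise.

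Likeness to the Slc16a6 probes was ranked by Pearson's r over the 12 arrays among 15733 genes, each by its brightest tested probe, as a description of arrays that share slides and conditions. The genes closest to the first probe were 4933407N01Rik (r = 0.989), Dbp (0.988), a circadian transcription factor, Pnkd (0.986), Mllt3 (0.986) and Cib1 (0.984). All 5 were highest in unstimulated cells, Dbp at a mean of 3.15 against 2.35 to 2.87 in the other conditions. After the fitted slide difference was subtracted, the closest were Fh1 (0.989), the mitochondrial fumarase, A530032D15Rik (0.987), S100a10 (0.985), Cib1 (0.983) and 4933407N01Rik (0.982). For the second probe, a ranking added after its values were seen, they were Fam46c (0.971), LOC640534 (0.960), Aph1a (0.950), Gm7688 (0.949) and Cdkn1a (0.940). After the slide was subtracted Cdkn1a, the cell cycle inhibitor p21, came first (0.993), followed by LOC640534 (0.974), Mrpl24 (0.972), Ahsa2 (0.971) and Fam46c (0.970). Cdkn1a had mean signals of 1.07 in unstimulated cells, 0.89 with Pam2CSK4, 0.51 with anti-CD86, 0.42 with TLR2.CD86, 0.27 with anti-CD40 and 1.60 with anti-CD40.Pam2CSK4.

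Slc16a1, the widely expressed lactate and pyruvate carrier, was lower with anti-CD86 and with TLR2.CD86 and higher with anti-CD40.Pam2CSK4 than in unstimulated cells. Its first probe read 3.08 and 3.17 in unstimulated cells, 2.72 and 2.70 with Pam2CSK4, 2.44 and 2.44 with anti-CD86, 2.42 and 2.38 with TLR2.CD86, 3.49 and 3.35 with anti-CD40, and 3.50 and 3.47 with anti-CD40.Pam2CSK4. In order from the highest mean, anti-CD40.Pam2CSK4 and anti-CD40 overlapped, and every other neighbouring pair of conditions was separate. Against unstimulated cells the log2 fold change was -0.69 ± 0.10 with anti-CD86 (SE, limma adjusted p = 0.0264), a fall of 1.61-fold. It was -0.72 ± 0.10 with TLR2.CD86 (limma adjusted p = 0.0107) and 0.36 ± 0.10 with anti-CD40.Pam2CSK4 (limma adjusted p = 0.0402).

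With Pam2CSK4 alone the first Slc16a1 probe differed from unstimulated cells by -0.41 ± 0.10 (limma adjusted p = 0.151), and with anti-CD40 alone by 0.29 ± 0.10 (limma adjusted p = 0.0813), the latter turning to -0.27 when arrays were centred on their median. Neither passed. In both cases the arrays did not overlap the unstimulated ones, which is a description only. Both passed with a slide block, at -0.39 ± 0.06 (limma adjusted p = 0.0186) and 0.32 ± 0.06 (limma adjusted p = 0.00876). On slide 1 alone the differences from unstimulated cells were -0.40 with Pam2CSK4, -0.69 with anti-CD86, -0.70 with TLR2.CD86 and 0.36 with anti-CD40.

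**Figure D2:**
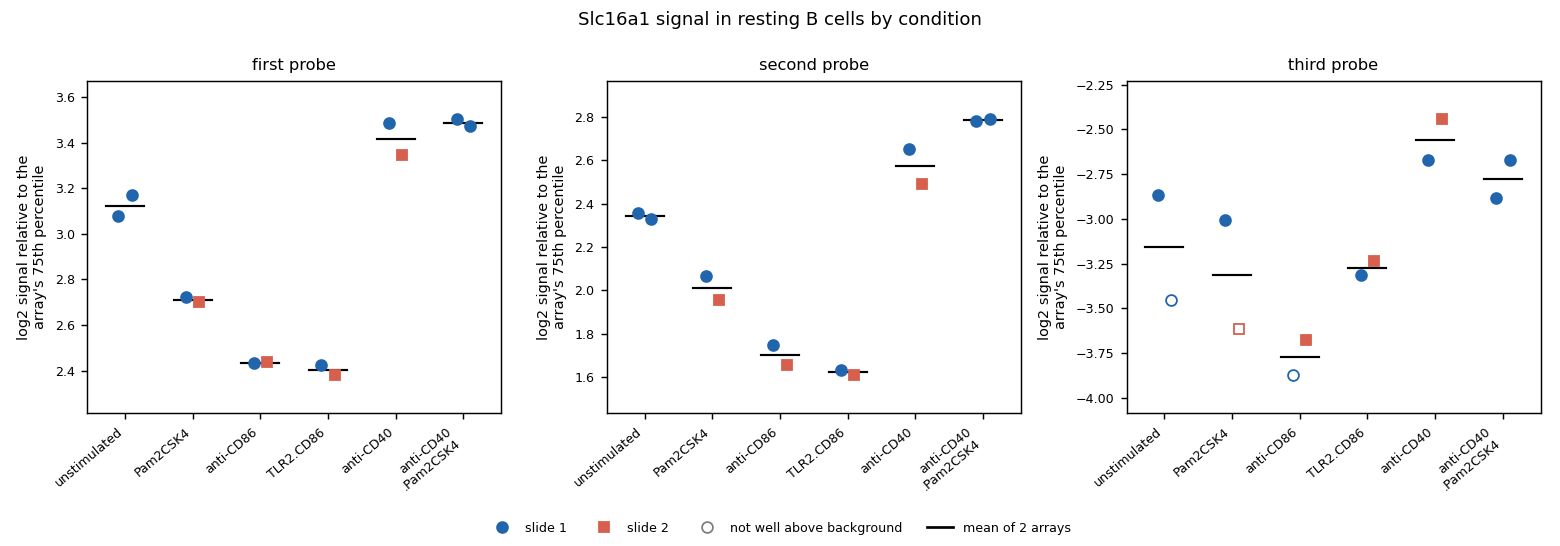
Log2 signal of the 3 Slc16a1 probes (vertical axes, with the 75th percentile of each array at 0) in the 6 conditions, drawn as for Slc16a6. In the first and second probes the anti-CD86 and TLR2.CD86 arrays lie lowest and the anti-CD40.Pam2CSK4 arrays among the highest, and 3 points of the third probe were not well above background.

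The second Slc16a1 probe moved as the first did. Its signals were 2.36 and 2.33 in unstimulated cells, 2.07 and 1.96 with Pam2CSK4, 1.75 and 1.65 with anti-CD86, 1.63 and 1.61 with TLR2.CD86, 2.65 and 2.49 with anti-CD40, and 2.78 and 2.79 with anti-CD40.Pam2CSK4. It was called lower with anti-CD86 at -0.64 ± 0.11 (limma adjusted p = 0.0345) and with TLR2.CD86 at -0.72 ± 0.11 (limma adjusted p = 0.0121), and higher with anti-CD40.Pam2CSK4 at 0.44 ± 0.11 (limma adjusted p = 0.024). A slide block added calls with Pam2CSK4 at -0.28, with anti-CD40 at 0.28, for TLR2.CD86 against Pam2CSK4 at -0.39 and for the departure of anti-CD40 with Pam2CSK4 at 0.45 (limma adjusted p = 0.029, 0.00893, 0.0126 and 0.0277). The third probe was close to background, well above it on 9 of 12 arrays, with values from -3.87 to -2.44. It was called in none of the 5 comparisons with unstimulated cells, and its differences ran from -0.61 ± 0.25 with anti-CD86 to 0.60 ± 0.25 with anti-CD40.

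Between stimulations, Slc16a1 was higher with anti-CD40.Pam2CSK4 than with TLR2.CD86 or Pam2CSK4. With anti-CD40.Pam2CSK4 the first probe was 1.09 ± 0.10 higher than with TLR2.CD86 (limma adjusted p = 8.8e-04), or 2.12-fold. It was 0.78 ± 0.10 higher than with Pam2CSK4 alone (limma adjusted p = 0.00393). Both calls held when each of the 12 arrays was left out in turn, and neither held under the median normalization described in the closing section. Adding Pam2CSK4 to anti-CD40 went with a difference of 0.07 ± 0.10 (limma adjusted p = 0.723), adding it to anti-CD86 with -0.03 ± 0.10 (limma adjusted p = 0.975), and adding anti-CD86 to Pam2CSK4 with -0.31 ± 0.10 (limma adjusted p = 0.342). The departure from the sum of the single effects was 0.48 ± 0.14 for anti-CD40 with Pam2CSK4 (limma adjusted p = 0.159) and 0.38 ± 0.14 for anti-CD86 with Pam2CSK4 (limma adjusted p = 0.969). With a slide block the first of these passed, at 0.43 ± 0.09 (limma adjusted p = 0.0409), and so did TLR2.CD86 against Pam2CSK4 (limma adjusted p = 0.0266).

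The calls of Slc16a1 against unstimulated cells depended on single arrays, while their direction did not. The call with anti-CD86 was lost without either unstimulated array, either anti-CD86 array or either anti-CD40.Pam2CSK4 array (adjusted p 0.0655 to 0.222 in limma). That with TLR2.CD86 was lost without either unstimulated array or TLR2.CD86 replicate 2 (adjusted p 0.0588 to 0.107 in limma). That with anti-CD40.Pam2CSK4 was lost without any 1 of the 10 arrays that were not anti-CD40 alone (adjusted p 0.0516 to 0.237 in limma).

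Sequence upstream of the start was at hand for 3 of the genes, and it is shown for the lactate carriers Slc16a1 and Slc16a3. The 250 bases before the start are from RefSeq, build GRCm38.p6, chr3:104638414-104638663 on the plus strand for Slc16a1 and chr11:120948817-120949066 on the plus strand for Slc16a3. Capitals mark ACGTG, the core of the element bound by hypoxia inducible factors, on either strand, which in Slc16a1 lies inside the E-box CACGTG.
Slc16a1: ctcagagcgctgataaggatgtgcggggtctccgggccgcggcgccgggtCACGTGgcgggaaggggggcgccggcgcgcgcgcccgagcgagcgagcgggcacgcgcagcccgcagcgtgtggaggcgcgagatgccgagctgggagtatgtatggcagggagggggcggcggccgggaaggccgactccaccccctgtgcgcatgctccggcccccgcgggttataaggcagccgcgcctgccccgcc
Slc16a3: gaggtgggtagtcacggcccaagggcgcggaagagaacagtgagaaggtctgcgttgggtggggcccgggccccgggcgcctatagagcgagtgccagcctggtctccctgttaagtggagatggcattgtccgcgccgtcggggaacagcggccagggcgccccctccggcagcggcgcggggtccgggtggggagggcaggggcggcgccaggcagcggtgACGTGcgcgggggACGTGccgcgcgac
Slc16a1 held ACGTG once on each strand, both within its 1 CACGTG, and Slc16a3 held ACGTG 2 times. Of 32851 mouse promoters of the same length, 16.6% held ACGTG and 6.02% held CACGTG on either strand, CACGTG containing ACGTG. The window of Slc16a10 held neither, and none of the 3 held TGACGTCA, the cAMP response element, which 1.55% of promoters held. These are matches of letters, and no binding was measured.

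Slc16a3, the carrier of glycolytic cells, did not pass in any comparison with unstimulated cells without a slide block. All 10 of its stimulated arrays were lower than the unstimulated ones, and the share of all tested probes that did so is not given. Its signals were 1.46 and 1.49 in unstimulated cells, 1.08 and 0.77 with Pam2CSK4, 1.13 and 0.83 with anti-CD86, 1.10 and 0.85 with TLR2.CD86, 1.39 and 1.02 with anti-CD40, and 1.13 and 1.10 with anti-CD40.Pam2CSK4. The slide 2 array was the lower of the pair in each condition that spanned the slides. The log2 fold changes were -0.56 ± 0.18 with Pam2CSK4 (limma adjusted p = 0.226), -0.50 ± 0.18 with anti-CD86 (limma adjusted p = 0.152) and -0.50 ± 0.18 with TLR2.CD86 (limma adjusted p = 0.104). They were -0.27 ± 0.18 with anti-CD40 (limma adjusted p = 0.321) and -0.36 ± 0.18 with anti-CD40.Pam2CSK4 (limma adjusted p = 0.195).

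Slc16a3 passed in 4 of these comparisons with a slide block, all lower. The values were -0.40 ± 0.05 with Pam2CSK4 (limma adjusted p = 0.0123), -0.34 ± 0.05 with anti-CD86 (limma adjusted p = 0.00633), -0.35 ± 0.05 with TLR2.CD86 (limma adjusted p = 0.00438) and -0.36 ± 0.05 with anti-CD40.Pam2CSK4 (limma adjusted p = 0.00165). With anti-CD40 alone it was -0.12 ± 0.05 (limma adjusted p = 0.138), and anti-CD40.Pam2CSK4 against anti-CD40 gave -0.25 ± 0.05 (limma adjusted p = 0.0292). The slide 1 arrays alone gave -0.40, -0.34, -0.38, -0.36 and -0.09 in the same order of conditions, with anti-CD40 last.

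Slc16a7 and Slc16a10 were lower with both stimulations that held anti-CD40. Slc16a7, a carrier with high affinity for pyruvate, read -1.92 and -2.07 in unstimulated cells, -2.06 and -2.64 with Pam2CSK4, -2.38 and -2.54 with anti-CD86, -2.24 and -2.54 with TLR2.CD86, -2.89 and -3.06 with anti-CD40, and -2.70 and -2.85 with anti-CD40.Pam2CSK4. Its log2 fold change was -0.98 ± 0.20 with anti-CD40 (limma adjusted p = 0.0182), a fall of 1.97-fold, and -0.78 ± 0.20 with anti-CD40.Pam2CSK4 (limma adjusted p = 0.0317). With Pam2CSK4 it was -0.36 ± 0.20 (limma adjusted p = 0.401), with anti-CD86 -0.47 ± 0.20 (limma adjusted p = 0.213) and with TLR2.CD86 -0.40 ± 0.20 (limma adjusted p = 0.225).

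The first probe of Slc16a10, the aromatic amino acid carrier, read -1.21 and -1.39 in unstimulated cells, -1.25 and -1.59 with Pam2CSK4, -1.28 and -1.19 with anti-CD86, and -1.18 and -1.41 with TLR2.CD86. It read -1.90 and -2.08 with anti-CD40 and -1.95 and -1.82 with anti-CD40.Pam2CSK4. The 4 arrays with anti-CD40 lay below the 8 others without overlap. The log2 fold change was -0.69 ± 0.16 with anti-CD40 (limma adjusted p = 0.0244), a fall of 1.61-fold, and -0.58 ± 0.16 with anti-CD40.Pam2CSK4 (limma adjusted p = 0.0361). With Pam2CSK4 it was -0.12 ± 0.16, with anti-CD86 0.06 ± 0.16 and with TLR2.CD86 0.01 ± 0.16 (limma adjusted p = 0.716, 0.835 and 0.991). Against TLR2.CD86, anti-CD40.Pam2CSK4 gave -0.59 ± 0.16 (limma adjusted p = 0.0459). The other 2 probes of Slc16a10 were well above background on 3 and 0 of 12 arrays and were not tested.

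**Figure D3:**
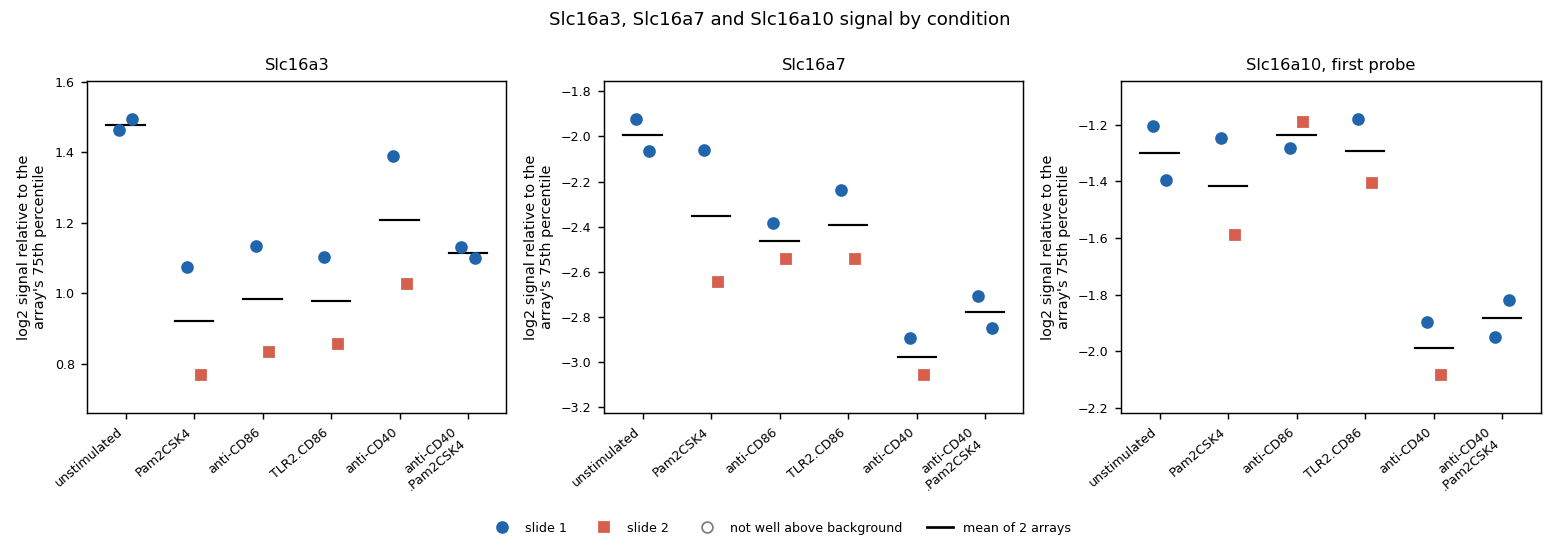
Log2 signal of Slc16a3, Slc16a7 and the first Slc16a10 probe (vertical axes, with the 75th percentile of each array at 0) in the 6 conditions, drawn as for Slc16a6. Slc16a7 and Slc16a10 are lowest in the 4 arrays with anti-CD40, and the Slc16a3 arrays on slide 2 lie below their slide 1 partners.

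On slide 1 alone, with 1 anti-CD40 array, Slc16a7 and Slc16a10 stood at -0.90 and -0.60 from unstimulated cells. With a slide block the anti-CD40 values were -0.83 ± 0.13 (limma adjusted p = 0.00326) and -0.61 ± 0.12 (limma adjusted p = 0.00978). The block also added calls for anti-CD40.Pam2CSK4 against Pam2CSK4, at -0.58 for Slc16a7 and -0.55 for Slc16a10 (limma adjusted p = 0.0156 and 0.0174), and against TLR2.CD86 for Slc16a7, at -0.54 (limma adjusted p = 0.0183). Both anti-CD40 calls were lost without either unstimulated array or anti-CD40 replicate 2 (adjusted p 0.0872 to 0.117 for Slc16a7 and 0.0988 to 0.156 for Slc16a10 in limma). With anti-CD40.Pam2CSK4 both calls were also lost under quantile normalization. The Slc16a7 call with anti-CD40.Pam2CSK4 was lost without any of the 4 arrays compared (adjusted p 0.104 to 0.171 in limma). That of Slc16a10 was lost without these 4 or either anti-CD86 array (adjusted p 0.0573 to 0.211 in limma), and its call against TLR2.CD86 without any array but those of Pam2CSK4 and anti-CD40 alone (adjusted p 0.0723 to 0.211 in limma).

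Slc16a13 was close to background. Its single probe was well above background on 4 of 12 arrays, never on both arrays of a condition, and read from -4.73 to -2.24. The replicates lay far apart in some conditions, as with Pam2CSK4, where it read -4.21 and -2.44. It was not tested.

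Counted by the brightest probe and leaving out Slc16a6, 4 of the 5 remaining genes were tested. None passed with Pam2CSK4, where 0.146% of all probes tested passed. Only 1, lower, passed with anti-CD86 (2.17% of all probes) and 1, lower, with TLR2.CD86 (10.8%). With anti-CD40, 2 passed, both lower (16.8%), and with anti-CD40.Pam2CSK4, 3 passed, 1 higher and 2 lower (18.2%). Between stimulations, none passed for TLR2.CD86 against Pam2CSK4 (0.0633%), TLR2.CD86 against anti-CD86 (0.225%) and anti-CD40.Pam2CSK4 against anti-CD40 (2.90%). For anti-CD40.Pam2CSK4, 1 passed against Pam2CSK4 (9.97%) and 2 against TLR2.CD86 (12.3%). None passed for the departure from additivity of anti-CD86 with Pam2CSK4 (0.0190%) or of anti-CD40 with Pam2CSK4 (1.16%). With 4 genes these counts say little beyond the genes themselves. Their median log2 fold change against unstimulated cells lay between -0.38 and -0.48 in the 5 conditions, beside -0.07 to 0.01 over all probes. The latter include dimmer probes, while each of the 4 genes stands by its brightest.

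More probes passed everywhere with a slide block, and the counts have to be read against those shares. Against unstimulated cells 2 of 4 genes passed with Pam2CSK4 (11.1% of all probes), 2 with anti-CD86 (28.5%), 2 with TLR2.CD86 (35.1%), 3 with anti-CD40 (37.3%) and 4 with anti-CD40.Pam2CSK4 (47.5%). Between stimulations 1 passed for TLR2.CD86 against Pam2CSK4 (11.0%), 0 for TLR2.CD86 against anti-CD86 (7.74%), 3 for anti-CD40.Pam2CSK4 against Pam2CSK4 (31.5%), 1 against anti-CD40 (15.2%) and 3 against TLR2.CD86 (34.6%). For the departures from additivity 0 passed with anti-CD86 (0.234%) and 1, Slc16a1, with anti-CD40 (8.58%).

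**Figure D4:**
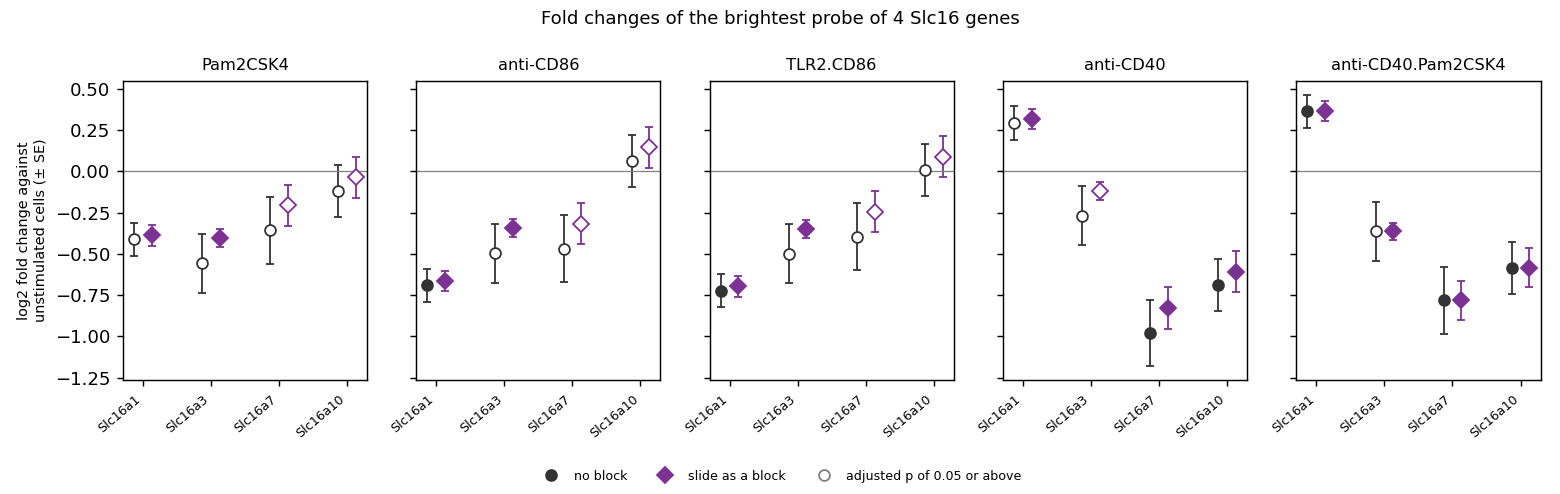
Log2 fold change against unstimulated cells (vertical axis, ± SE, n = 2 against 2) of the brightest probe of Slc16a1, Slc16a3, Slc16a7 and Slc16a10 in each stimulation, from the fit without a block (circles) and with a slide block (diamonds), filled where the adjusted p was under 0.05. Slc16a1 lies below 0 with anti-CD86 and TLR2.CD86, at -0.69 and -0.72, and above 0 with anti-CD40.Pam2CSK4, at 0.36.

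Among further genes of the family, Slc16a4, Slc16a8 and Slc16a11 were tested, and none of these passed in any of the 12 comparisons, with or without a slide block. Slc16a5, Slc16a9, Slc16a12 and Slc16a14 were well above background on 0 of 12 arrays.

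Of 30 genes that work with these carriers, for the chaperones, pyruvate and lactate enzymes, ketone body use and amino acid carriers, 24 were tested by their brightest probe. None passed with Pam2CSK4 or anti-CD86, where 0.146% and 2.17% of all probes passed. With TLR2.CD86 9 passed, all lower, beside 10.8% of all probes, of which 2333 were lower and 1077 higher. With anti-CD40 10 passed, 8 lower and 2 higher, beside 16.8%, 3375 lower and 1948 higher. With anti-CD40.Pam2CSK4 9 passed, 8 lower and 1 higher, beside 18.2%, 3064 lower and 2699 higher. Their median log2 fold changes were -0.43, -0.43 and -0.38 in these 3 comparisons, beside -0.03, -0.02 and 0.01 over all probes. The sets are unlike, since all tested probes include dimmer ones, while each listed gene stands by its brightest probe. Over the 25973 probes well above background on all arrays the medians were -0.07, -0.06 and 0.004. There 4409, 5873 and 5915 probes passed. With a slide block 4 passed with Pam2CSK4, 3 of them lower (11.1% of all probes), 10 with anti-CD86, all lower (28.5%), 17 with TLR2.CD86, 16 lower (35.1%), 18 with anti-CD40, 16 lower (37.3%), and 15 with anti-CD40.Pam2CSK4, 14 lower (47.5%). The genes named below are given without the block unless it is mentioned.

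Among the chaperones Emb fell and Bsg did not pass. The first Emb probe read 2.71 and 2.75 in unstimulated cells, 2.29 and 2.04 with TLR2.CD86, 2.35 and 2.13 with anti-CD40, and 2.08 and 1.96 with anti-CD40.Pam2CSK4. Its log2 fold changes were -0.57, -0.50 and -0.72 (limma adjusted p = 0.0388, 0.0424 and 0.00952), while its second probe did not pass in any of them (-0.23, -0.41 and -0.19). The Bsg probe ran from -0.39 to 0.22 over the 12 arrays, with fold changes of -0.03 to 0.20 on the log2 scale for anti-CD40, TLR2.CD86 and anti-CD86 and 0.22 with anti-CD40.Pam2CSK4 (limma adjusted p = 0.494).

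Of the enzymes that make or use lactate and pyruvate, Ldhb, a lactate dehydrogenase subunit, fell with TLR2.CD86, anti-CD40 and anti-CD40.Pam2CSK4, with log2 fold changes of -0.69, -0.61 and -0.59 (limma adjusted p = 0.0393, 0.0429 and 0.0452). The first probe of the pyruvate dehydrogenase kinase Pdk2 fell as well, with -0.77, -0.77 and -0.76 (limma adjusted p = 0.0388, 0.0295 and 0.0263), while its second probe did not pass. Pdp2, a phosphatase that reverses that phosphorylation, rose with anti-CD40 by 0.51 and with anti-CD40.Pam2CSK4 by 0.77 (limma adjusted p = 0.0454 and 0.00884). Ldha, the other main subunit, fell with anti-CD40.Pam2CSK4 by its first probe (-0.47, limma adjusted p = 0.0325) and not by its second (0.21, limma adjusted p = 0.53). With a slide block the Ldha probes passed with TLR2.CD86 in opposite directions, at -0.34 and 0.33 (limma adjusted p = 0.0322 and 0.0183). Without the block the first Pdk1 probe fell with TLR2.CD86 and anti-CD40.Pam2CSK4 (-0.77 and -0.60, limma adjusted p = 0.0317 and 0.0441). Of pyruvate dehydrogenase, Dlat fell with TLR2.CD86 (-0.70, limma adjusted p = 0.0163). Pdha1 and Pdhx fell with anti-CD40 (-0.63 and -0.50, limma adjusted p = 0.0299 and 0.0339). Second probes of these genes did not pass there. The second Pdha1 probe fell with TLR2.CD86 and anti-CD40.Pam2CSK4 (-0.39 and -0.72, limma adjusted p = 0.046 and 0.00278), where its first probe did not pass. The pyruvate carrier Mpc2 fell with TLR2.CD86 and anti-CD40 (-0.44 and -0.42, limma adjusted p = 0.0411 and 0.0361).

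Of the ketone body genes on this list, Bdh1, Oxct1 and Acat1 passed in at least 1 comparison, all lower. The first probe of Bdh1, which oxidises hydroxybutyrate, fell, with -0.65 with anti-CD40 and -1.08 with anti-CD40.Pam2CSK4 (limma adjusted p = 0.0245 and 0.00262), while its second did not pass. The first probe of Oxct1, which activates acetoacetate, gave -0.66, -0.74 and -0.65 with TLR2.CD86, anti-CD40 and anti-CD40.Pam2CSK4 (limma adjusted p = 0.0225, 0.0104 and 0.0107), while its other 2 probes did not pass. With a slide block the second Oxct1 probe passed in all 3, at -0.24, -0.35 and -0.35 (limma adjusted p = 0.0296, 0.00747 and 0.0044), and the third probe with anti-CD40, at -0.35 (limma adjusted p = 0.016). Among the amino acid carriers Slc7a5, a carrier of large neutral amino acids, fell with TLR2.CD86 (-0.49) and rose by 0.57 with anti-CD40 (limma adjusted p = 0.024 and 0.0102), and it differed by 0.08 with anti-CD40.Pam2CSK4 (limma adjusted p = 0.629). The regulator Hif1a did not pass in these comparisons, with -0.41 at most (limma adjusted p = 0.118), but passed with a slide block with TLR2.CD86 and anti-CD40, at -0.29 and -0.22 (limma adjusted p = 0.0108 and 0.0284).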

How the data were processed

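The labels and methods describe RB cells of BALB/c spleens, 12 samples in 6 groups of 2, grouped by GEO's labels. According to the methods, Cy3-labelled RNA was put on a custom mouse array (annotation mm9) and read out by Feature Extraction 10.5.1.1. Each deposited scanner file gives every spot an intensity, of which the background-corrected processed signal was taken. A further deposited table of log2 values, checked here, was the log2 of that signal shifted by a single constant for each array (100% of probes within 0.01), and served as an alternative.

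The signal was log2 of the processed intensity minus the log2 75th percentile of the array. Control and outlier spots (5 to 35 per array) were left out and saturated spots kept, and spots of a probe were averaged. Probes called well above background in both replicates of 1 or more conditions, with no missing value, were tested with limma 3.58.1 in R 4.3.3, 1 mean per condition over 12 arrays, with eBayes and Benjamini-Hochberg adjustment over all 31601 probes, and called at an adjusted p under 0.05. The fit was run on simulated data with independent noise in each array and no slide difference. That run cannot show how the calls behave under the slide difference of these arrays. The 12 comparisons share control arrays. The number of arrays limits the precision. The replicate numbers were not taken as pairs, since differences between replicates correlated by 0.54 to 0.67 among the 4 conditions split over the slides and by -0.11 to 0.07 in pairs with the others.

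The members, the gene lists and the tests were chosen with earlier results of these data known. The rule for named genes was the members, the other Slc16 genes, the listed pathway genes and the 5 genes most like Slc16a6. All 11 member probes carried an accession that the RefSeq table (GRCm38.p6, names only) gives for the same gene. Python 3.11.15 was used with pandas 2.3.3, and matplotlib 3.10.9 for plots. The alternatives were other normalizations and background corrections, the authors' table, other filters, and the slide or the replicate number as a block. The fit was also run without moderation, with a t-test of each comparison, and with each array left out. The values of slide 1 alone and the alternatives for the second Slc16a6 probe, among them leaving out its dim array, were chosen after seeing the data.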

Additional observations from a re-analysis of the deposited data

Results flagged for a closer look

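For 2 probes every array moved one way when anti-CD40 was added to unstimulated cells and the opposite way when it was added to Pam2CSK4. How many of all tested probes did so is not given here, so the count is a description of these probes only. In the second Slc16a6 probe the anti-CD40 arrays lay below the unstimulated ones and the anti-CD40.Pam2CSK4 arrays above the Pam2CSK4 ones, a difference between these effects of 3.57 on the log2 scale, or 3.13 without the anti-CD40 array that was not well above background. This gene was selected on its change, and the difference was not tested. In Slc16a3 the same held with a difference of 0.46, which did not pass (limma adjusted p = 0.314). In a fit with a slide block it was 0.16 (limma adjusted p = 0.271). Groups of 2 arrays were too small to look for single arrays that stood apart.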

How the results depend on the processing

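Counts below are of the 4 tested members, Slc16a6 left out. Centring arrays on their median put the median of all probes at -0.58 for anti-CD40 against unstimulated cells (-0.02 otherwise) and at 0.81 for the departure of anti-CD40 with Pam2CSK4 (0.16 otherwise), and left 0 members called with anti-CD86, TLR2.CD86, anti-CD40 and anti-CD40.Pam2CSK4 against unstimulated cells and 0 for anti-CD40.Pam2CSK4 against Pam2CSK4 and against TLR2.CD86. Testing all probes with no filter left 0 in the same 4 comparisons with unstimulated cells and 1 for anti-CD40.Pam2CSK4 against TLR2.CD86. For anti-CD40.Pam2CSK4, quantile normalization left 1 against unstimulated cells and 1 against TLR2.CD86, and normexp 0 and 1. A slide block gave 2 with Pam2CSK4, 2 with anti-CD86 and 2 with TLR2.CD86 against unstimulated cells, 1 for TLR2.CD86 against Pam2CSK4, 3 for anti-CD40.Pam2CSK4 against Pam2CSK4, 1 against anti-CD40 and 1 for the departure of anti-CD40 with Pam2CSK4. The fit without moderation, with a t-test of each comparison, gave 1 with Pam2CSK4, 1 for anti-CD40.Pam2CSK4 against TLR2.CD86 and 1 for that departure. The replicate numbers share only a number. A replicate block gave 2 with anti-CD86 and 2 with TLR2.CD86, and 3967 and 7788 probes against 686 and 3410. Leaving out 1 array gave 0 to 1 with anti-CD86, 0 to 1 with TLR2.CD86, 0 to 2 with anti-CD40, 0 to 3 with anti-CD40.Pam2CSK4 and 1 to 2 for anti-CD40.Pam2CSK4 against TLR2.CD86. Over all settings the probes called ranged from 0 to 8991 with anti-CD86 and from 348 to 11777 with anti-CD40. The cause was not tested.

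Uncalled values changed sign. Slc16a1 with anti-CD40 was -0.27 under median centring, its anti-CD40.Pam2CSK4 against anti-CD40 -0.030 under quantile normalization and -0.080 under normexp, and its TLR2.CD86 against anti-CD86 0.0034 under quantile normalization. Slc16a10 was -0.077 with anti-CD86 and -0.28 with TLR2.CD86 under median centring and -0.10 with TLR2.CD86 under quantile normalization. With 1 array left out it ran from -0.29 to 0.052 with Pam2CSK4, from -0.031 to 0.16 with anti-CD86 and from -0.11 to 0.12 with TLR2.CD86. The second Slc16a6 probe stayed between 1.15 and 1.72 with anti-CD40.Pam2CSK4 and between -2.74 and -0.81 with anti-CD40, while the median over both probes gave 0.63 for the first of these. Signals near background limit Slc16a13, the third Slc16a1 probe and 2 Slc16a10 probes.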
